A study of Mus musculus with 48 samples.

Results

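The amygdala and the hippocampus of mice of the arm coded NH were compared on 20 of the 48 arrays of the study, 10 from each tissue, taken by their titles and tissue labels. The labels do not spell the arm out, and NH is read here as naive home, mice left in the home cage. They give no strain, sex, age or dissection border, and they do not say whether each array is an animal of its own. The p-values therefore measure the spread between these arrays, which may be technical. The digits of amygdala titles 16364, 16566 and 16768 can be read as the batch number and a pair of numbers, and these pairs are the hippocampus arrays 63 and 64, 65 and 66, and 67 and 68. Read so, an amygdala array would be a pool of 2 animals that also gave hippocampus arrays, and the 20 arrays would not all be independent. Titles of several amygdala arrays of the arms CS and FC hold pairs of hippocampus numbers of their own arm in the same way. The labels do not state such a link, and the fit across the 20 arrays does not use it. The other 28 arrays hold amygdala (6 and 6) and hippocampus (8 and 8) of the arms CS and FC from the same work on associative and nonassociative learning, and they serve below as further arrays with the same tissue contrast. The array was a one-colour Affymetrix oligonucleotide array, on which a probe set is the group of probes that reports 1 transcript.

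The hippocampus is a folded sheet of cortex, needed for memory of places, in which dentate granule cells project to pyramidal neurons of the CA fields. The amygdala is a cluster of nuclei, needed for learned fear. Its basolateral nuclei hold cortex-like glutamatergic projection neurons, and its central and medial nuclei hold mostly GABA neurons that resemble those of the striatum and carry many neuropeptides. A tissue punch or dissection of either region takes in glia, vessels and some of the neighbouring tissue. In such bulk samples, fewer cells of a type and less RNA per cell cannot be told apart.

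Levels below are log2 intensities after quantile normalization over the 20 arrays, so a difference of 1 is a doubling, and each difference is amygdala minus hippocampus from limma with its standard error, which weighs batches and so can differ slightly from the difference of the means. The step was needed because the deposited array medians lay between 76.6 and 80.8 in hippocampus and between 52.3 and 54.7 in amygdala. Of 7453 probe sets bright enough to test, 1326 (17.8%) passed an adjusted p of 0.05 with the amygdala higher and 1287 (17.3%) with the hippocampus higher, 35.1% in all. With each array centred on its median in place of quantile normalization, the split was 1696 against 1097. Most of these differences were small, with 2344 of the 2613 (89.7%) under 1.5-fold. At 2-fold or more, 37 probe sets were higher in amygdala (0.496%) and 43 in hippocampus (0.577%), and 5 reached 4-fold. The 80 probe sets past 2-fold name 34 genes higher in amygdala and 32 higher in hippocampus, and 5 of them name no single gene. In 77 of the 80 the lowest array of the higher tissue lay above the highest array of the other. The 80 were chosen by 2-fold calls in these same arrays, which makes such a gap likely. Of all tested probe sets, 374 (5.02%) had no overlap with the amygdala above and 391 (5.25%) with the hippocampus above.

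Every batch of processing named in the labels held 1 tissue, with NH amygdala in batches 1 (6 arrays), 2 (3) and 3 (1) and NH hippocampus in batches 4 (2), 6 (2) and 7 (6). Batch entered the fit as a random block (correlation within batches 0.160), and a batch effect shared by all batches of a tissue cannot be told apart from the tissue. Hippocampus array 100, from batch 4, stood apart from the other hippocampus arrays. Its median absolute deviation from their mean was 0.14, against 0.064 to 0.107 in the other hippocampus arrays. Without it, 2440 of the 2611 calls still tested were made the same way, and so were all 80 past 2-fold.

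**Figure D1:**
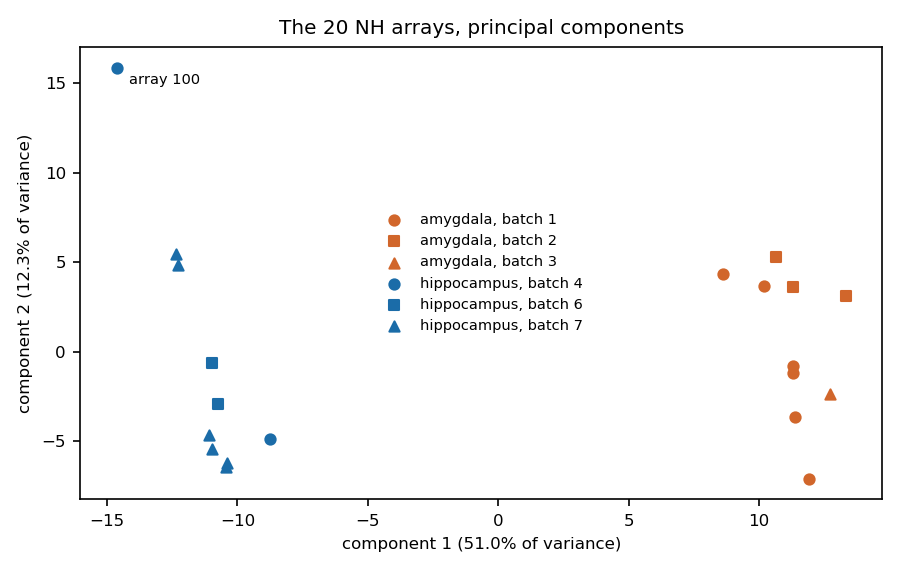
Positions of the 20 NH arrays on the first and second principal component of the tested probe sets, with the share of variance on each axis, coloured by tissue and shaped by batch. The first component (51.0% of variance) separates the tissues, with hippocampus arrays at -14.62 to -8.75 and amygdala arrays at 8.61 to 13.31, and array 100 lies alone at 15.86 on the second.

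Of the region markers that were tested, Neurod6 was higher in hippocampus, and Cdh13, Tac2 and Wfs1 were higher in amygdala. Neurod6, a transcription factor of cortical and hippocampal pyramidal neurons, had levels of 7.31 to 7.96 (median 7.64) in the hippocampus arrays and 5.17 to 5.43 (median 5.30) in the amygdala arrays. No array of one tissue reached the other, and the difference was -2.33 ± 0.072 (SE; limma, adjusted p = 1.55e-18), 5.01-fold in favour of the hippocampus. Cdh13, an adhesion protein anchored in the membrane by lipid, had levels of 5.40 to 5.63 (median 5.50) in the hippocampus arrays and 6.30 to 7.12 (median 6.43) in the amygdala arrays. All amygdala arrays lay higher, by 1.15 ± 0.097 (SE; limma, adjusted p = 8.03e-10), and their batch means were 6.39 in batch 1 and 6.93 in batches 2 and 3. The difference was 0.88 between batches 1 and 7 and 1.42 between batches 2 and 3 and batches 4 and 6. Tac2, the precursor of neurokinin B, had levels of 6.37 to 6.77 (median 6.55) in the hippocampus arrays and 7.25 to 7.56 (median 7.38) in the amygdala arrays. Wfs1, the endoplasmic reticulum protein wolframin, had levels of 8.08 to 8.34 (median 8.22) in the hippocampus arrays and 8.71 to 9.03 (median 8.81) in the amygdala arrays. Both were higher in every amygdala array, Tac2 by 0.84 ± 0.060 (SE; limma, adjusted p = 3.58e-11) and Wfs1 by 0.62 ± 0.062 (SE; limma, adjusted p = 1.72e-08). Wfs1 is known from CA pyramidal neurons as well as from the central amygdala.

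Dsp, Prox1 and Lct did not enter the main test, which skipped the dimmest 40% of probe sets by their average over the 20 arrays. Such an average lets in a probe set that is dim in either tissue if it is bright enough in the other. Among genes named in this report, Trhr, Tac1, Gad2, Nr2f2, Rxrg, Gabrg1 and a Mef2c probe set entered through their amygdala arrays. Neurod6, Sema3e, Tdo2, Cebpb, Anln, Nr4a2 and single probe sets of Nrp1, Mobp and Sema7a entered through their hippocampus arrays. The largest tested difference in each direction, in Trhr and in Nrp1, thus comes from such a probe set. These lists are not complete. Dsp encodes desmoplakin, a desmosomal protein of dentate granule cells, and its level was 6.71 to 7.03 (median 6.76) in the hippocampus arrays and 3.88 to 4.22 (median 4.09) in the amygdala arrays. Prox1, the transcription factor that fixes dentate granule cell identity, had levels of 4.87 to 5.47 (median 5.41) in the hippocampus arrays and 3.54 to 3.81 (median 3.69) in the amygdala arrays. Lct, the gene of the enzyme lactase, had levels of 6.33 to 7.01 (median 6.48) in the hippocampus arrays and 3.47 to 3.93 (median 3.64) in the amygdala arrays. Each of these dentate markers lay higher in every hippocampus array. With no filter on brightness the differences were -2.91 ± 0.084 (SE; limma, adjusted p = 1.88e-19) for Lct, -2.71 ± 0.058 (SE; limma, adjusted p = 5.38e-22) for Dsp and -1.65 ± 0.074 (SE; limma, adjusted p = 2.37e-15) for Prox1. A second Dsp probe set was near the bottom of the scale in both tissues (2.82 and 2.76). In array 100, Lct was the highest and Prox1 the lowest of the hippocampus arrays.

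**Figure D2:**
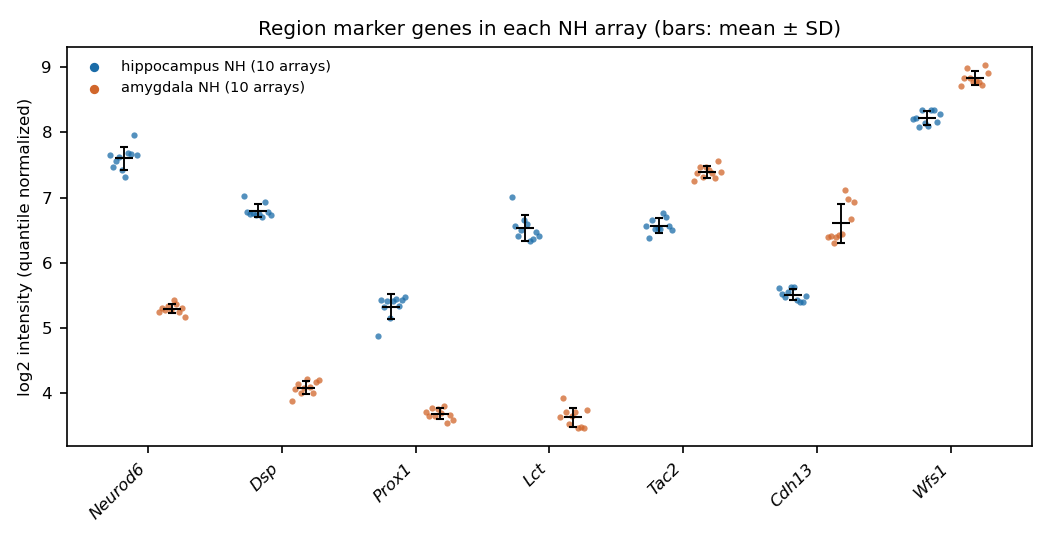
Level of 7 region markers (log2 intensity, vertical axis) in each of 10 hippocampus and 10 amygdala NH arrays, with mean and SD as bars. Neurod6, Dsp, Prox1 and Lct are higher in every hippocampus array, and Tac2, Cdh13 and Wfs1 in every amygdala array.

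On the wider list of hippocampal field markers, 9 of 16 tested genes were higher in hippocampus and 2 in amygdala, with a median difference of -0.37. Over all 5655 genes tested (brightest probe set of each) the shares were 17.6% and 18.1% and the median difference was 0.0038. Counts for the lists below are to be read beside these shares. Tdo2, which opens the ring of tryptophan and is known from dentate granule cells, had levels of 6.17 to 6.52 (median 6.34) in the hippocampus arrays and 4.93 to 5.09 (median 4.97) in the amygdala arrays. These ranges lay far apart, with a difference of -1.37 ± 0.053 (SE; limma, adjusted p = 1.92e-16), while a second, dim Tdo2 probe set was at 4.85 and 5.05. Pou3f1, a POU-domain transcription factor known from pyramidal neurons of field CA1, differed by -1.15 ± 0.084 (SE; limma, adjusted p = 4.85e-11). Zbtb20, a zinc finger repressor needed for the hippocampal pyramidal fate, differed by -1.05 ± 0.15 (SE; limma, adjusted p = 6.40e-06), the mannosidase gene Man1a by -0.94 ± 0.076, and Dkk3, a secreted glycoprotein of the Dickkopf family, by -0.91 ± 0.11. Rgs14, a regulator of G protein signalling known from field CA2, differed by -0.48 ± 0.058, Bok, a pro-apoptotic relative of Bcl2, by -0.45 ± 0.055, and the transcription factor Neurod2 by -0.30 ± 0.084. The members higher in amygdala were Wfs1 and Calb1, the calcium buffer calbindin, which differed by 0.82 ± 0.074 (SE; limma, adjusted p = 2.64e-09). With no filter, 15 of the 27 members on the array were higher in hippocampus and 5 in amygdala. The summed normalized intensity of the list was 4960 to 5531 in hippocampus and 4148 to 4463 in amygdala.

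The list of amygdala and piriform markers was mixed. Of 14 tested members, 6 were higher in amygdala and 3 in hippocampus, with a median of 0.05. Besides Cdh13 and Tac2, the orphan nuclear receptor Nr2f2 differed by 1.14 ± 0.10 (SE; limma, adjusted p = 3.47e-09), the Joubert syndrome gene Ahi1 by 1.13 ± 0.10 (SE; limma, adjusted p = 1.53e-09), and Gpx3, a secreted glutathione peroxidase, by 0.90 ± 0.057 (SE; limma, adjusted p = 3.35e-12). Nr2f2 is read by a probe set whose design name marks possible cross-hybridisation, and its second probe set lay too low to test. Rspo2, a secreted activator of Wnt signalling, was higher in every hippocampus array, by -0.77 ± 0.063 (SE; limma, adjusted p = 4.30e-10). The lipid metabolism regulator Thrsp (-0.70 ± 0.055) and Fezf2 (-0.71 ± 0.066), a transcription factor of deep-layer cortical projection neurons, were higher in hippocampus too. The summed intensity of the list was 1886 to 2083 in hippocampus and 2410 to 2605 in amygdala.

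The largest tested difference in favour of the amygdala was in Trhr, the receptor for thyrotropin-releasing hormone. Its level was 5.27 to 5.59 (median 5.45) in the hippocampus arrays and 7.52 to 7.95 (median 7.80) in the amygdala arrays, and the difference was 2.36 ± 0.066 (SE; limma, adjusted p = 2.96e-19), 5.14-fold. Trh, which encodes the hormone itself, was higher in amygdala as well, with levels of 6.26 to 6.49 (median 6.35) in the hippocampus arrays and 7.54 to 8.06 (median 7.71) in the amygdala arrays. The tissues did not overlap in either gene, and Trh differed by 1.38 ± 0.065 (SE; limma, adjusted p = 1.03e-14). The ligand gene and the receptor gene of this peptide were thus both among the 12 named genes with the largest tested difference on that side. Some genes left out of the test, such as Camk2d (2.63 with no filter), differed by more than Trh.

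Many neuropeptide precursors were higher in amygdala. Of 23 tested members, 12 (52.2%) passed with the amygdala higher and 3 (13.0%) with the hippocampus higher, with a median of 0.19. Penk, the precursor of the enkephalins, had levels of 8.09 to 8.66 (median 8.20) in the hippocampus arrays and 10.05 to 10.73 (median 10.48) in the amygdala arrays. The ranges lay more than a doubling apart, with a difference of 2.17 ± 0.099 (SE; limma, adjusted p = 5.43e-15), 4.5-fold. Its probe set carries a suffix for sequences shared with other transcripts, and a second Penk probe set differed by 0.55. Tac1, the precursor of substance P, had levels of 4.77 to 5.45 (median 5.03) in the hippocampus arrays and 6.54 to 7.11 (median 6.66) in the amygdala arrays. Every amygdala array lay above every hippocampus array, and the difference was 1.72 ± 0.11 (SE; limma, adjusted p = 4.51e-12). Adcyap1 encodes PACAP, a peptide that raises cAMP. Its levels were 5.42 to 5.64 (median 5.54) in the hippocampus arrays and 7.07 to 7.31 (median 7.26) in the amygdala arrays, a difference of 1.68 ± 0.050 (SE; limma, adjusted p = 8.82e-19).

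Differences of the remaining peptide precursors were under 2-fold. Scg2, the precursor of secretoneurin, differed by 0.77 ± 0.093 (SE; limma, adjusted p = 4.02e-07), Pnoc, the precursor of nociceptin, by 0.60 ± 0.059 (SE; limma, adjusted p = 1.10e-08), and vasopressin (Avp) by 0.54 ± 0.11 (SE; limma, adjusted p = 0.00063), the last with overlapping arrays. Galanin (Gal, 0.26 ± 0.053), somatostatin (Sst, 0.23 ± 0.042), prodynorphin (Pdyn, 0.22 ± 0.068) and chromogranin A (Chga, 0.19 ± 0.064) passed with smaller differences. On the hippocampal side were chromogranin B (Chgb, -0.58 ± 0.059, limma adjusted p = 2.28e-08), secretogranin III (Scg3, -0.46 ± 0.11) and cholecystokinin (Cck, -0.45 ± 0.058, limma adjusted p = 1.13e-06). Chgb and Cck did not overlap between tissues. Npy, the neuropeptide Y gene, lay at a mean of 8.96 in hippocampus and 8.85 in amygdala and did not pass.

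Promoters of peptide genes higher in amygdala are printed because cAMP response elements are known from several peptide genes. The genes shown were picked for being higher in amygdala. They are the 250 bases before the start annotated by RefSeq (build GRCm38.p6), written 5′ to 3′ on the gene's strand, with capitals on TGACG or its reverse complement CGTCA, the half-site of the cAMP response element. Tac1 lies at chr6:7554811-7555060, plus strand, Adcyap1 (its most upstream start) at chr17:93198767-93199016, plus strand, Trh at chr6:92244651-92244900, minus strand and Tac2 at chr10:127724228-127724477, plus strand.
Tac1: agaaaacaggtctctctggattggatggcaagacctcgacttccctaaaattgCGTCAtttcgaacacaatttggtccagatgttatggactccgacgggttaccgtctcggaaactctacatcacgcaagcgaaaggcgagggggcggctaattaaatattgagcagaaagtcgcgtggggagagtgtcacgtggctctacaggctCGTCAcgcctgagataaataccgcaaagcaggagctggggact
Adcyap1: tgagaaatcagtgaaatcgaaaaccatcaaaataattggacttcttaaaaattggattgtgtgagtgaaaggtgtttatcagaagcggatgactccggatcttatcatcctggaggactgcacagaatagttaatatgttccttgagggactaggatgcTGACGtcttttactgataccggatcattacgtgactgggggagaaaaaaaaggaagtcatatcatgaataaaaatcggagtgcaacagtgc
Trh: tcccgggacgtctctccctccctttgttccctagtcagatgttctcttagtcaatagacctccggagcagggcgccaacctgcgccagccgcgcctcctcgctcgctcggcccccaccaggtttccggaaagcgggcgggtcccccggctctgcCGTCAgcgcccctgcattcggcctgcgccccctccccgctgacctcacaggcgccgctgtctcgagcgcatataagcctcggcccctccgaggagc
Tac2: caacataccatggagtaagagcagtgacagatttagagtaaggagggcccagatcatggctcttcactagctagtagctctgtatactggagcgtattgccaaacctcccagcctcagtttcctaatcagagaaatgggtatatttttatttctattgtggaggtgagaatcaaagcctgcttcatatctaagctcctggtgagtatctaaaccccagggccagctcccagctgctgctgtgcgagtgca
In the Tac1 window the half-site begins 197 and 43 bases before the start, in Adcyap1 91 bases and in Trh 96 bases before it, and the Tac2 window holds none. The half-site, on either strand, was in 13 of the 27 promoters found for the 34 genes 2-fold higher in amygdala (48.1%) and in 4 of the 23 found for the 32 genes 2-fold higher in hippocampus (17.4%). It was in 27.4% of the promoters of tested genes and in 17.8% of all 27025 promoters of the table. The full element TGACGTCA, which contains the half-site, was in 2 of the 27 (7.41%), Ap2b1 and Meg3, in 0 of the 23, and in 2.64% of tested genes. A match describes the letters of the window and is not evidence of a working site. Penk and Trhr were not found in the promoter table.

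Among neuropeptide receptors, 8 of 21 tested genes (38.1%) were higher in amygdala and 1 in hippocampus. Apart from Trhr, the differences were under 2-fold. The somatostatin receptor genes Sstr2 (0.64 ± 0.061, limma adjusted p = 5.47e-09) and Sstr1 (0.43 ± 0.061) and the nociceptin receptor gene Oprl1 (0.53 ± 0.057, limma adjusted p = 6.90e-08) were higher in amygdala without overlap. Cckbr, the brain cholecystokinin receptor, was also higher in amygdala (0.35 ± 0.069), on the opposite side from the Cck precursor. The receptors of corticotropin-releasing hormone, Crhr1 (0.28 ± 0.048) and Crhr2 (0.31 ± 0.057), passed with small differences. Npy1r, a receptor of neuropeptide Y, was the member higher in hippocampus (-0.29 ± 0.080, limma adjusted p = 0.006). The receptors of PACAP (Adcyap1r1, means of 6.45 and 6.68) and substance P (Tacr1, 7.03 and 7.10) did not pass.

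Genes of GABA synthesis, transport and interneurons were mostly higher in amygdala. Of 14 tested, 10 (71.4%) passed on that side and 1, Cck, on the other, with a median of 0.39. Gad2, one of the enzymes that make GABA, had levels of 4.82 to 5.31 (median 5.03) in the hippocampus arrays and 5.87 to 6.36 (median 6.21) in the amygdala arrays. The tissues were fully apart, with a difference of 1.13 ± 0.087 (SE; limma, adjusted p = 1.36e-10). The other such enzyme, Gad1, differed by 0.33 ± 0.11 (SE; limma, adjusted p = 0.0202) with overlapping arrays, and Slc32a1, the vesicular GABA transporter, by 0.76 ± 0.089 (SE; limma, adjusted p = 2.32e-07). Reln, the secreted glycoprotein reelin, differed by 1.00 ± 0.093 (SE; limma, adjusted p = 4.82e-09), and Calb2, the calcium buffer calretinin, by 0.75 ± 0.060 (SE; limma, adjusted p = 2.34e-10). Lhx6, a transcription factor of interneurons from the medial ganglionic eminence, differed by 0.67 ± 0.065, Dlx1, a homeobox factor of GABA neurons, by 0.46 ± 0.088, and Nos1, the neuronal nitric oxide synthase, by 0.52 ± 0.10. Parvalbumin (Pvalb) lay at 10.44 in hippocampus and 10.30 in amygdala and did not pass. A dim second Pvalb probe set, at 4.23 and 3.45, was higher in hippocampus with no filter (-0.79 ± 0.066, limma adjusted p = 4.47e-10).

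Markers of striatal type projection neurons followed the same side. Of 10 tested, 7 were higher in amygdala and 1 in hippocampus, with a median of 0.36, and the list shares Penk and Tac1 with the peptides. Rxrg, a retinoid X receptor, had levels of 4.87 to 5.23 (median 4.97) in the hippocampus arrays and 5.97 to 6.20 (median 6.08) in the amygdala arrays, with no overlap and a difference of 1.08 ± 0.055 (SE; limma, adjusted p = 4.23e-14). The striatum-enriched phosphatase Ptpn5 differed by 0.68 ± 0.065 (SE; limma, adjusted p = 8.42e-09) and the phosphodiesterase Pde1b by 0.48 ± 0.054 (SE; limma, adjusted p = 1.49e-07). Foxp1, a forkhead factor of striatal neurons and also of CA1, was higher in hippocampus (-0.58 ± 0.056, limma adjusted p = 7.71e-09). The dopamine receptor genes of the list were too dim to test, with means of 5.42 and 5.47 for Drd2 and 5.16 and 5.31 for Drd3. The summed intensity of the list was 1397 to 1567 in hippocampus and 2561 to 3226 in amygdala. The share of neighbouring striatum in the amygdala samples was not tested.

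Other genes among the 12 largest tested differences on the amygdala side belong to no single pathway. Mef2c, a MADS-box transcription factor of cortical and amygdala neurons, was read by 4 probe sets, which differed by 1.33, 1.42, 1.53 and 1.62. For the last of these, levels were 4.84 to 5.67 (median 5.25) in the hippocampus arrays and 6.55 to 7.17 (median 6.92) in the amygdala arrays, and the difference was 1.62 ± 0.12 (SE; limma, adjusted p = 4.67e-11). Cmbl, a cytosolic hydrolase, differed by 1.78 ± 0.078 (SE; limma, adjusted p = 2.63e-15), and Wdr6, a WD-repeat protein, by 1.38 ± 0.070 (SE; limma, adjusted p = 5.14e-14). Ap2b1, a subunit of the clathrin adaptor, differed by 1.32 ± 0.12 (SE; limma, adjusted p = 6.14e-09), and Rcn1, a calcium-binding protein of the endoplasmic reticulum, by 1.31 ± 0.084 (SE; limma, adjusted p = 4.09e-12). All 4 were higher in every amygdala array. Myh7, a myosin heavy chain, differed by 1.89 ± 0.062 (SE; limma, adjusted p = 4.28e-18) on one probe set and by -0.36 on another (adjusted p = 9.04e-05), so its direction depends on the probe set.

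Further genes past 2-fold, named here after their values were seen, were Ptpro (1.31), a receptor tyrosine phosphatase, Hap1 (1.28), the huntingtin-associated protein, and Resp18 (1.28), an endocrine secretory protein, all higher in amygdala. Gap43 (1.12), a growth cone protein, Cdk5r1 (1.04), the activator of the kinase Cdk5, and Timp2 (1.14), a metalloproteinase inhibitor, lay on the same side. Meg3 (1.13) is an imprinted noncoding RNA. On the hippocampal side were Hsd11b1 (-1.17), which regenerates active glucocorticoid, Kalrn (-1.23), an exchange factor of dendritic spines, and Ptk2b (-1.14), a calcium-activated tyrosine kinase. The desmosomal gene Pkp2 (-1.09) differed in the same direction as Dsp, and Trpc4 (-1.12) encodes a cation channel.

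**Figure D3:**
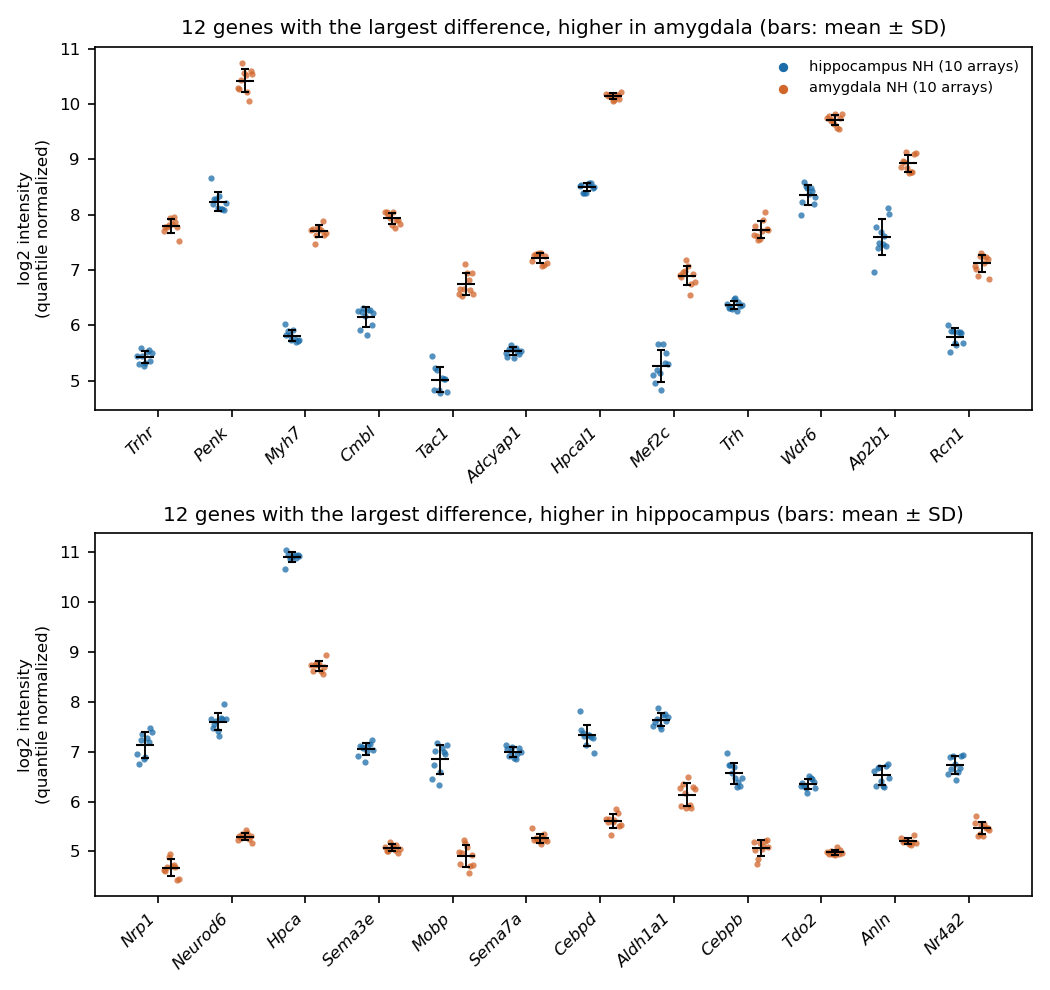
Level (log2 intensity, vertical axis) in each of 10 hippocampus and 10 amygdala NH arrays of the 12 named genes with the largest difference in each direction, with mean and SD as bars. These genes were chosen among tested probe sets whose arrays do not overlap between the tissues, so the gap in each is part of the choice. Myh7 has a second probe set, not drawn, that differs the other way.

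On the hippocampal side, the genes with the largest differences included receptors and ligands of axon guidance. Nrp1, neuropilin, a receptor for class 3 semaphorins and for VEGF, had levels of 6.75 to 7.48 (median 7.21) in the hippocampus arrays and 4.44 to 4.94 (median 4.69) in the amygdala arrays. This was the largest tested difference toward the hippocampus, -2.48 ± 0.11 (SE; limma, adjusted p = 1.52e-15), and a second probe set differed by -1.58 ± 0.077. Sema3e, a secreted semaphorin that binds plexin D1, had levels of 6.79 to 7.23 (median 7.08) in the hippocampus arrays and 4.98 to 5.20 (median 5.07) in the amygdala arrays. Its ranges were narrow and far apart, a difference of -1.98 ± 0.060 (SE; limma, adjusted p = 1.27e-18). Plxnd1, the gene of that plexin, lay on the other side, higher in every amygdala array (0.76 ± 0.046, limma adjusted p = 1.54e-12). Sema7a, a semaphorin anchored to the membrane, differed by -1.75 ± 0.056 (SE; limma, adjusted p = 2.74e-18) on one probe set and by 0.01 on another.

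The list of axon guidance and adhesion genes as a whole leaned to the amygdala by count, with 16 of 48 tested genes (33.3%) higher there and 7 (14.6%) higher in hippocampus. The shares over all genes were 18.1% and 17.6%. The largest differences on the hippocampal side were those of Sema3e and Nrp1, followed by the ephrin receptors Epha7 (-1.05 ± 0.073, limma adjusted p = 1.79e-11), Epha4 (-0.93 ± 0.083, limma adjusted p = 2.26e-09), Epha6 (-0.45 ± 0.062), Ephb6 (-0.45 ± 0.056) and Ephb3 (-0.39 ± 0.047). Members higher in amygdala were Cdh13, the immunoglobulin-type adhesion molecule Alcam (0.91 ± 0.14, limma adjusted p = 8.00e-06, with overlapping arrays), Cdh4 (0.88 ± 0.062, limma adjusted p = 2.76e-11), which encodes R-cadherin, and the ephrin ligand Efnb2 (0.67 ± 0.088, limma adjusted p = 1.42e-06). Alcam did not pass in the CS and FC arrays (0.44 ± 0.25, limma adjusted p = 0.174). Of 8 ephrin receptor genes tested, 5 were higher in hippocampus, and of 5 ephrin genes tested, 3 were higher in amygdala, Efnb1 (0.39 ± 0.068) and Efnb3 (0.28 ± 0.056) being the others. This grouping was made after the values were seen. With no filter, a dim probe set of a further receptor gene, Epha5, was higher in amygdala (0.16 ± 0.064, limma adjusted p = 0.0489).

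Calcium sensors of one family differed in opposite directions. Hpca, hippocalcin, had levels of 10.67 to 11.05 (median 10.92) in the hippocampus arrays and 8.57 to 8.95 (median 8.73) in the amygdala arrays. Every hippocampus array lay above every amygdala array, with a difference of -2.17 ± 0.058 (SE; limma, adjusted p = 2.96e-19). Hpcal1, its close relative, had levels of 8.39 to 8.58 (median 8.51) in the hippocampus arrays and 10.06 to 10.21 (median 10.16) in the amygdala arrays, a difference of 1.65 ± 0.046 (SE; limma, adjusted p = 2.96e-19), again without overlap. The Hpcal1 probe set carries the suffix for sequences shared with other transcripts. Of the same family, Vsnl1 was slightly higher in amygdala (0.34 ± 0.086, limma adjusted p = 0.00348), and Hpcal4 (means of 7.43 and 7.52) and Ncs1 (6.44 and 6.43) did not pass.

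Kinases, phosphatases and other signalling genes of synaptic plasticity were divided, with 13 of 41 tested (31.7%) higher in amygdala and 14 (34.1%) higher in hippocampus. Besides Hpca, the hippocampal members were Ryr2 (-0.81 ± 0.075, limma adjusted p = 4.14e-09), a channel that releases stored calcium, the calmodulin kinase subunit Camk2b (-0.63 ± 0.053, limma adjusted p = 6.13e-10), the adenylyl cyclase Adcy9 (-0.64 ± 0.060) and Ppp3ca (-0.60 ± 0.11, limma adjusted p = 0.000137), the catalytic subunit of calcineurin. Prkcb, protein kinase C beta, differed by -0.58 ± 0.049 and by -1.02 on its 2 probe sets. On the amygdala side were Prkacb (1.01 ± 0.062, limma adjusted p = 1.59e-12), a catalytic subunit of protein kinase A, the G protein regulators Rgs4 (0.73 ± 0.16, limma adjusted p = 0.000971) and Rgs2 (0.72 ± 0.11), and the phosphodiesterase Pde4b (0.68 ± 0.090). Camk2d, a calmodulin kinase subunit whose mean over all arrays was too low for the main test, had levels of 3.29 to 3.66 (median 3.46) in the hippocampus arrays and 5.45 to 6.45 (median 6.15) in the amygdala arrays. Its difference with no filter was 2.63 ± 0.092 (SE; limma, adjusted p = 1.20e-17). Camk2a, the best known subunit in forebrain synapses, did not pass on either of its 2 probe sets, and on the brighter one its hippocampus arrays spanned 6.66 to 9.27, with a tissue difference of 0.57 ± 0.27.

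Transcription factors split by tissue, with 11 of 42 regional factors (26.2%) higher in amygdala and 14 (33.3%) in hippocampus. The shares over all genes were 18.1% and 17.6%. After Mef2c and Nr2f2, the amygdala side held Pbx3 (0.70 ± 0.082, limma adjusted p = 2.21e-07), a TALE homeobox factor, whose dimmer probe sets differed by 2.15 and 1.04 with no filter, and Nr2f1 (0.52 ± 0.11, limma adjusted p = 0.000673), the partner of Nr2f2. The hippocampal side held, after Neurod6, Pou3f1 and Zbtb20, the nuclear factor I gene Nfix (-0.93 ± 0.12, limma adjusted p = 1.78e-06) and Lmo1 (-0.91 ± 0.053, limma adjusted p = 7.63e-13), a LIM-only protein. Nfib (-0.68 ± 0.11), a relative of Nfix, and Lmo4 (-0.64 ± 0.091), a relative of Lmo1, lay on that side too. Cebpd and Cebpb, leucine zipper factors of the C/EBP family, were among the 12 largest tested differences there. Cebpd had levels of 6.97 to 7.81 (median 7.32) in the hippocampus arrays and 5.33 to 5.84 (median 5.61) in the amygdala arrays, a difference of -1.72 ± 0.091 (SE; limma, adjusted p = 1.12e-13), and Cebpb differed by -1.49 ± 0.096 (SE; limma, adjusted p = 3.99e-12). In both, every hippocampus array lay higher.

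Among nuclear receptors, 4 of 17 tested (23.5%) were higher in amygdala and 3 (17.6%) in hippocampus, close to the shares over all genes. Nr4a2, an orphan receptor that is also induced by neuronal activity, had levels of 6.43 to 6.94 (median 6.72) in the hippocampus arrays and 5.32 to 5.71 (median 5.47) in the amygdala arrays. Its difference was -1.28 ± 0.082 (SE; limma, adjusted p = 4.51e-12), and its relative Nr4a1 differed by -0.24 ± 0.084 (SE; limma, adjusted p = 0.0278). The estrogen receptor gene Esr1 did not pass (means of 6.40 and 6.36), and the glucocorticoid receptor probe set Nr3c1 was too dim to test (4.07 and 4.00). Aldh1a1, which makes retinoic acid, had levels of 7.46 to 7.88 (median 7.63) in the hippocampus arrays and 5.87 to 6.50 (median 6.21) in the amygdala arrays, with no overlap and a difference of -1.50 ± 0.098 (SE; limma, adjusted p = 6.45e-12).

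Tested receptors for GABA and glutamate differed by less than 2-fold, with the exception of Gabrg1. Of 6 GABA receptor genes tested, 3 were higher in amygdala, namely Gabrg1 (1.03 ± 0.14, limma adjusted p = 1.62e-06), a subunit known from the central amygdala, Gabbr1 (0.39 ± 0.062, limma adjusted p = 2.65e-05) and Gabrb2 (0.24 ± 0.083, limma adjusted p = 0.0291). Gabra3, whose mean was too low for the main test, differed by 1.51 with no filter. Of 9 glutamate receptor genes, the AMPA receptor subunits Gria1 (-0.38 ± 0.064, limma adjusted p = 4.42e-05) and Gria2 (-0.26 ± 0.068) were higher in hippocampus, and the metabotropic Grm8 (0.59 ± 0.082, limma adjusted p = 3.42e-06) and the NMDA receptor subunit Grin2b (0.44 ± 0.10) in amygdala. Of 17 monoamine, acetylcholine and cannabinoid receptors, 3 passed, 1 (5.88%) higher in amygdala and 2 (11.8%) in hippocampus. Both shares were under the 18.1% and 17.6% of all genes. The serotonin receptor genes Htr5b (-0.39 ± 0.062, limma adjusted p = 2.31e-05) and Htr1a (-0.26 ± 0.065) were higher in hippocampus and Htr7 (0.23 ± 0.063) in amygdala.

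Of 31 voltage-gated channel genes, 7 (22.6%) were higher in amygdala and 8 (25.8%) in hippocampus, beside 18.1% and 17.6% of all genes. The largest difference in each direction was in a potassium channel gene. Kcnab2, a cytoplasmic potassium channel subunit, differed by -1.21 ± 0.065 (SE; limma, adjusted p = 1.18e-13), with every hippocampus array higher. Kcnd2 (-0.87 ± 0.12, limma adjusted p = 4.82e-06), which carries the transient current of dendrites, Kcna1 (-0.68 ± 0.095) and Kcnab1 (-0.63 ± 0.10) were higher in hippocampus too. The design name of this Kcnd2 probe set marks possible cross-hybridisation, and a dim second one differed by -1.08 with no filter. The inward rectifier Kcnj4 was higher in every amygdala array (1.00 ± 0.092, limma adjusted p = 3.78e-09).

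**Figure D4:**
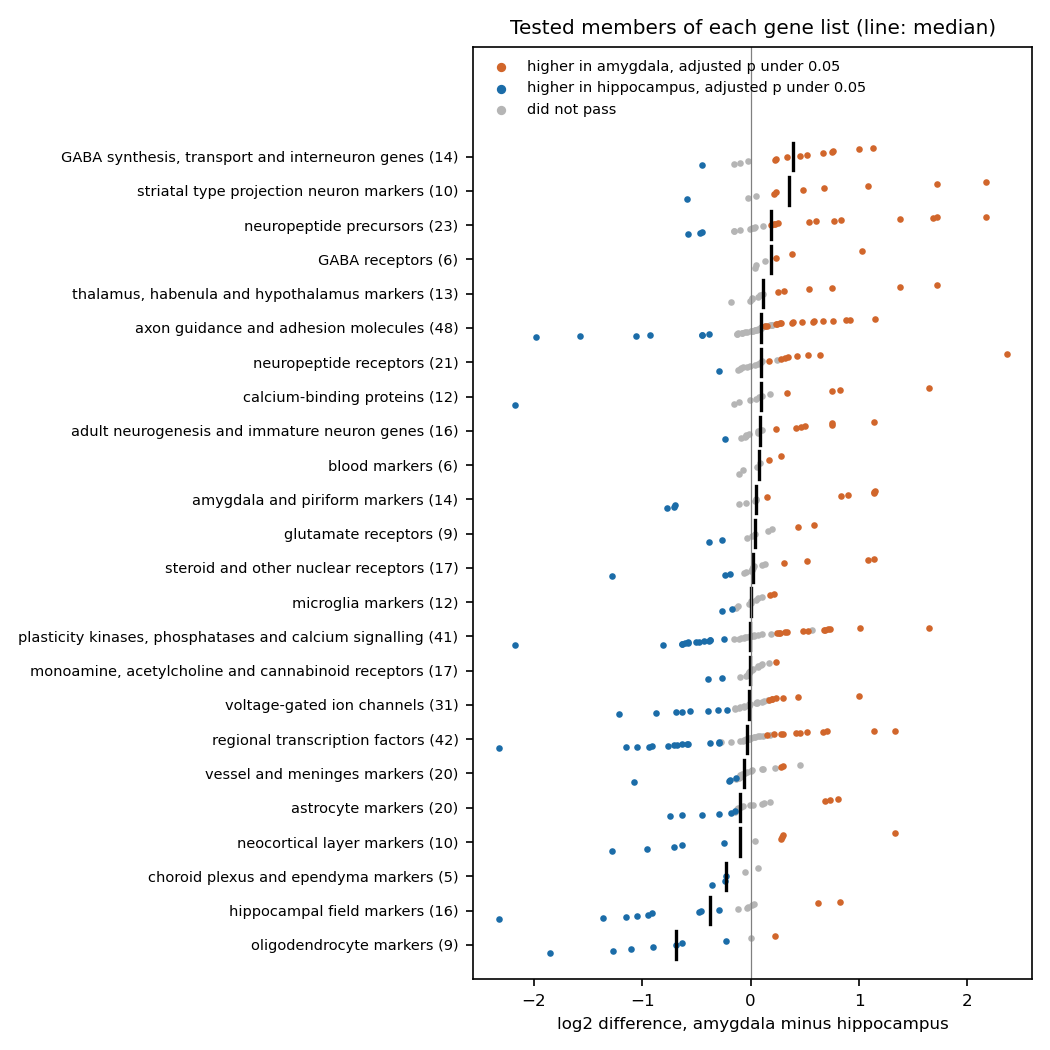
Log2 difference (amygdala minus hippocampus, horizontal axis) of each tested member of 24 gene lists, with the number tested in brackets, coloured by the tissue in which a member passed as higher and grey where it did not pass; the black line is the list's median. GABA genes (median 0.39) and striatal type markers (0.36) lie farthest to the amygdala side, and oligodendrocyte markers (-0.68) and hippocampal field markers (-0.37) farthest to the hippocampal side.

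Myelin genes were higher in hippocampus. Of 9 oligodendrocyte markers tested, 7 passed on that side, with a list median of -0.68. Mobp, a structural protein of myelin, was read by 4 probe sets, which differed by -1.96, -1.86, -1.34 and -1.07. On the brightest of these, levels were 9.75 to 10.25 (median 10.07) in the hippocampus arrays and 7.90 to 8.54 (median 8.16) in the amygdala arrays, 3.62-fold apart. Mal, a proteolipid of myelin, differed by -1.27 ± 0.071 (SE; limma, adjusted p = 3.16e-13), Cldn11, the claudin of myelin tight junctions, by -1.11 ± 0.12 (SE; limma, adjusted p = 7.37e-08), and Mbp, myelin basic protein, by -0.90 ± 0.072 (SE; limma, adjusted p = 2.79e-10). Anln, the actin-binding protein anillin, which was not on the list, differed by -1.32 ± 0.076 (SE; limma, adjusted p = 5.85e-13). Mag, the myelin-associated glycoprotein, was higher in amygdala on its brightest probe set (0.23 ± 0.076, limma adjusted p = 0.0213) and lower there on the other (-0.67). The design name of the brightest one, like that of Nr2f2, marks possible cross-hybridisation, so the direction of Mag depends on the probe set. Sox10, the transcription factor of the lineage, had the same mean of 7.96 in both tissues. The summed intensity of the list was 5208 to 6170 in hippocampus and 3147 to 3666 in amygdala.

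Astrocyte markers were split, 6 of 20 (30%) higher in hippocampus and 3 (15%) in amygdala. Gfap, the astrocyte intermediate filament, differed by -0.74 ± 0.11 (SE; limma, adjusted p = 7.18e-06), and the water channel Aqp4 by -0.63 ± 0.098 (SE; limma, adjusted p = 1.42e-05). Agt, angiotensinogen, was higher in every amygdala array (0.81 ± 0.049, limma adjusted p = 1.59e-12), and Itih3 differed by 0.73 ± 0.059. Of 12 microglia markers, 2 (16.7%) passed in each direction, near the shares over all genes, among them the protease gene Ctss (-0.27 ± 0.087, limma adjusted p = 0.0195). Of 20 vessel and meninges markers, 2 (10%) were higher in amygdala and 4 (20%) in hippocampus, under or near the 18.1% and 17.6% of all genes. Dcn, the matrix proteoglycan decorin, differed by -1.08 ± 0.16 (SE; limma, adjusted p = 1.25e-05) with overlapping arrays, and its amygdala arrays spanned 6.31 to 8.01.

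Of 5 tested choroid plexus and ependyma genes, 3 passed as higher in hippocampus and 0 as higher in amygdala (limma). Rarres2, the chemerin gene, differed by -0.36 ± 0.049 (SE; limma, adjusted p = 2.84e-06), Calml4, a calmodulin-like gene, by -0.24 ± 0.071 (SE; limma, adjusted p = 0.0109) and Foxj1, a transcription factor of ciliated cells, by -0.23 ± 0.066 (SE; limma, adjusted p = 0.0097). The arrays overlapped in Calml4 and Foxj1, and neither passed in the CS and FC arrays (adjusted p = 0.107 and 0.217). Of the same list, the defining genes Ttr and Kl had means too low for the main test. Ttr, transthyretin, had levels of 5.19 to 8.50 (median 5.95) in the hippocampus arrays and 4.02 to 4.37 (median 4.13) in the amygdala arrays, with array 82 at 8.50 and no other array above 6.5. Kl, the gene of klotho, had levels of 5.50 to 6.33 (median 5.86) in the hippocampus arrays and 4.30 to 4.63 (median 4.42) in the amygdala arrays, and with no filter the differences were -2.00 ± 0.30 (SE; limma, adjusted p = 1.03e-05) and -1.48. The summed intensity of the choroid list was 530.3 to 917.3 in hippocampus and 432.2 to 509.1 in amygdala. The part of choroid plexus in the results above was not tested.

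Of 13 tested markers of thalamus, habenula and hypothalamus, 6 were higher in amygdala and 0 in hippocampus (limma; the list shares Tac1, Trh, Avp, Gal and Calb2 with the lists above). Oxt (means of 7.41 and 7.42) and Hcrt (6.93 and 6.92), peptides made in the hypothalamus, did not pass. Of 10 neocortical layer markers, 4 were higher in amygdala, led by Mef2c, and 5 in hippocampus, led by Nr4a2 and by Crym (-0.95 ± 0.059, limma adjusted p = 2.37e-12), a thyroid hormone-binding protein. Of 6 blood markers 2 were slightly higher in amygdala, Camp by 0.28 ± 0.057 and Alas2 by 0.17 ± 0.051. Genes of immature neurons and neurogenesis leaned to the amygdala by count, with 7 of 16 (43.8%) higher there and 1 (6.25%) in hippocampus. That 1 was Crmp1, at 8.75 to 8.96 in the hippocampus arrays and 8.48 to 8.71 in the amygdala arrays. Dim probe sets left out of the test were mixed with no filter. Neurod1 (-0.53) and Mki67 (-0.19 and -0.15) were higher in hippocampus, Top2a (0.19) was higher in amygdala, and Eomes did not pass. Marcksl1, a substrate of protein kinase C, differed by 1.14 ± 0.067 (SE; limma, adjusted p = 8.01e-13), the microtubule regulator Stmn1 by 0.75 ± 0.058 (SE; limma, adjusted p = 1.59e-10), the cyclin Ccnd1 by 0.50 ± 0.049 and doublecortin, Dcx, by 0.46 ± 0.062 (SE; limma, adjusted p = 2.22e-06).

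The same contrast was fitted in the 28 CS and FC arrays, which the NH comparison did not use. Batches 2, 3, 4 and 6 hold arrays of both sets, so the sets share these batches. By their titles, some CS and FC amygdala arrays may share animals with hippocampus arrays, and this fit uses no such link. There 1387 probe sets (18.6%) were higher in amygdala and 1242 (16.7%) in hippocampus. Of the 80 probe sets past 2-fold in NH arrays, 78 were tested, and all 78 passed with the same direction. The difference in CS and FC arrays was 0.702 to 1.243 times that in NH arrays, with a median of 0.997. Trhr differed by 2.35 there, Penk by 2.27, Neurod6 by -2.60 and Nrp1 by -2.63. Rxrg and Gabrg1 fell below the brightness limit of that fit. Of all 2596 NH calls tested there, 1930 passed in the same direction and 0 in the opposite one (limma in both fits).

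**Figure D5:**
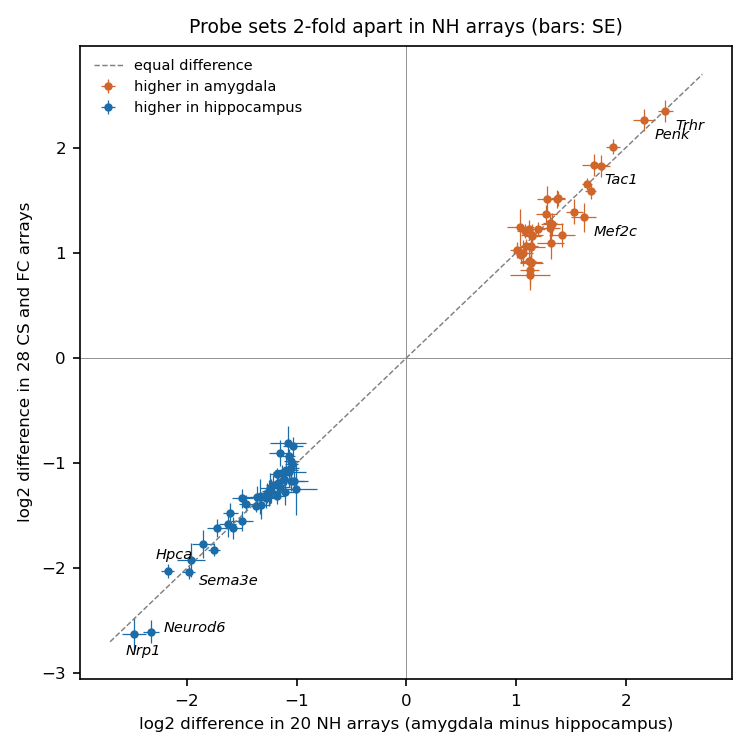
Log2 difference, amygdala minus hippocampus, in the 20 NH arrays (horizontal axis) and in the 28 CS and FC arrays (vertical axis) for the 78 probe sets that were 2-fold apart in NH arrays and tested in both; bars are standard errors and the dashed line marks equal differences. The points were chosen by the horizontal axis, and all lie on the same side of 0 on the vertical one.

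Separate sets of batches were compared as well. The 80 probe sets past 2-fold and the 2613 calls were chosen on these same NH arrays, so agreement within parts of them is partly built in. Of the 80 probe sets past 2-fold, 79 passed in the same direction both in batch 1 against batch 7 (6 arrays against 6) and in batches 2 and 3 against 4 and 6 (4 against 4). Of all 2613 calls, 1057 did so. Penk differed by 2.26 in the first set and 2.06 in the second, Trhr by 2.36 and 2.39, Neurod6 by -2.23 and -2.41, and Hpca by -2.18 and -2.19. Of 908 genes with several tested probe sets, 534 had all of them on the same side and 28 had probe sets that passed in opposite directions.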

How the data were processed

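Total RNA of amygdala and hippocampus was hybridised as biotinylated cRNA to one-colour Affymetrix arrays, per the labels' protocols. The deposited values are linear intensity per probe set, made with RMA per the submitters' processing notes; its version is not given in the sources used here. The tissues had different array medians as deposited, so the log2 of the deposited intensity was quantile normalized over the 20 NH arrays. Of 12488 probe sets, 66 controls were left out, and 40% of the rest with the lowest mean were not tested. Probe sets were named from the platform annotation (10855 name 1 gene, 396 several and 1237 none).

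Differences were fitted in limma 3.58.1 (R 4.3.3) over 7453 probe sets, with batch as a random block and Benjamini-Hochberg adjustment at 0.05; a second rule required 2-fold. Genes in lists were read from their brightest probe set. The script was tested on simulated data. Named genes were the 7 markers and, among tested probe sets, the 12 largest non-overlapping differences in each direction. Up to 5 per list and direction were added, with members whose role is described. Other names are said to be chosen after their values were seen. The members and lists were chosen with earlier results of these data known. The number of arrays limits the precision, and the median SE was 0.064. The numbers in the titles were checked for pairing on the 3 amygdala arrays and the 3 means of same-numbered hippocampus arrays. In each tissue, deviations were taken from the mean of these 3. They correlated across probe sets at 0.425, 0.133 and 0.482 in the 3 same-numbered sets and at -0.412 to 0.036 in the other combinations. Deviations from a mean of 3 cancel out, so positive values in some combinations lower the others, and the contrast is partly built in. Pairing is thus read from the titles, where several CS and FC amygdala arrays also hold pairs of hippocampus numbers of their own arm. It is not settled by this check and is not stated by the labels. It enters only as an alternative. Alternatives covered scaling, the filter, the batch block, batches and arrays left out, and trend with robust eBayes. Promoters came from RefSeq tables.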

Additional observations from a re-analysis of the deposited data

Results flagged for a closer look

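In 24 of 288 groups of 10 arrays (8.33%), formed by a named gene in a tissue, the highest or lowest array lay apart from the rest by more than Dixon's 95% limit; chance gives about 1 in 20. Of the 24, 10 were in hippocampus array 100 and 5 in hippocampus array 111, both from batch 4. Values are log2 intensities, each with that of the nearest array. The causes were not tested.

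Hippocampus array 100 had Lct at 7.01 (above 6.66), Penk at 8.66 (above 8.33), Hpca at 10.67 (below 10.86), Atp1b2 at 5.97 (below 7.09) and Dio2 at 7.1 (above 6.77). The same array had Epha4 at 6.65 (below 7.07), Vsnl1 at 10.03 (below 10.41), Htr1a at 5.48 (below 5.74), Adcy9 at 8.19 (above 7.92) and Kcnab2 at 9.18 (below 9.49). Hippocampus array 111 had Ahi1 at 7.25 (below 7.72), Lmo4 at 8.88 (below 9.28), Ryr2 at 7.1 (below 7.39), Ppp3ca at 9.43 (below 10.05) and Nr2f1 at 7.07 (below 7.56). Hippocampus array 66 had Cux2 at 5.7 (above 5.5). Hippocampus array 67 had Oprl1 at 6.26 (below 6.43). Amygdala array 3142153 had Alas2 at 6.55 (above 6.46) and Npy1r at 6.14 (below 6.4). Amygdala array 16970 had Htr7 at 6.75 (above 6.66). Amygdala array 17172 had C1qc at 8.35 (below 8.61). Amygdala array 17374 had Avp at 7.66 (above 7.17). Amygdala array 29798 had Crym at 7.42 (above 7.28). Amygdala array 299141 had Epha7 at 6.56 (above 6.37).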

How the results depend on the processing

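Beside the 2613 probe sets that passed (1326 higher in amygdala, 1287 in hippocampus), no filter gave 4324 (2167 and 2157), because more probe sets were tested, and a 60% filter gave 1710 (859 and 851), with 25 rather than 43 higher in hippocampus by 2-fold. With 1 mean per batch, 1732 passed, 865 of them higher in amygdala. Batches 2 and 3 against 4 and 6, with fewer arrays, gave 1191 (594 and 597), and leaving out batch 7 gave 1636 (834 and 802). Leaving out each array in turn, with the correlation kept, gave 2361 to 2737 in all, 1196 to 1401 higher in amygdala and 1165 to 1336 higher in hippocampus, and 37 to 40 and 42 to 45 by 2-fold. No called gene named in the report changed direction under the alternatives planned for it. Among named genes, Cldn5 lost its call in 21 settings, Tyrobp in 16, and Gja1 and Acta2 in 8 each. Of genes whose differences are given above, Gria2 lost its call in 6 settings, Mag and Nr4a1 in 5 each, and Calml4, Ctss and Gabrb2 in 4 each. Further genes lost it in fewer settings. With no filter, chosen after seeing the data for the lists, 15 hippocampal field markers were higher in hippocampus and 5 in amygdala. In an alternative chosen after seeing the data, each of the 3 amygdala arrays whose digits hold 2 hippocampus numbers was set against the mean of those 2 arrays. With the pair as a block 2604 probe sets passed (1308 and 1296), and 1867 (898 and 969) without the block. Both fits gave 36 and 46 past 2-fold, and both called all 80 probe sets of the report's 2-fold calls the same way. The arrays used here are among those that chose the 80, so this agreement is partly built in. Low signal over background limits what the dim probe sets can show.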

Other observations

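Among probe sets left out of the main test for low mean intensity, 14 were 2-fold higher in amygdala and 16 in hippocampus with no filter, and all 30 had no overlap between tissues. A choice by 2-fold calls in these same arrays makes such a gap likely. The share without overlap over all dim probe sets was not counted. Named after their values were seen, the amygdala side held Cdkn1c, an inhibitor of cell cycle kinases (1.54), the imprinted zinc finger gene Plagl1 (1.32), the membrane tethering gene Esyt3 (1.55) and Sema3a, a secreted semaphorin that signals through neuropilin (1.11). Sema3a was thus higher in the tissue where Nrp1 was lower. The hippocampal side held Cdh11, a cadherin (-1.45), Il1r1, the interleukin 1 receptor (-1.32), the myelin gene Mog (-1.13) and Serpinf1, a secreted serpin (-1.11).

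In hippocampus array 100, several abundant neuronal transcripts were read far below the other 9 arrays. Camk2a was at 4.41 on its dimmer probe set against 6.56 to 7.66, the vesicle calcium sensor Syt1 at 7.30 against 9.40 to 10.13, and the small GTPase Arf3 at 5.55 against 7.53 to 8.56. Map2, of dendritic microtubules, was at 5.41 against 6.71 to 7.73. None of these 4 probe sets passed between the tissues, and the cause was not tested.

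In amygdala, Ptgds, the prostaglandin D synthase of meninges, ranged from 8.59 to 11.11 over the 10 arrays and did not pass. In batch 7, the deviations of hippocampus arrays 63 and 64 from the batch mean correlated across probe sets at 0.62, those of 67 and 68 at 0.36 and those of 65 and 66 at 0.34, while the other pairs lay between -0.65 and -0.16. The titles of amygdala arrays 16364, 16768 and 16566 hold these same pairs of numbers. Deviations from a shared batch mean cancel out, so positive correlations in some pairs lower those in others. The labels do not say that such arrays share animals, and probe sets are not independent replicates.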
